A study of Mus musculus with 6 samples.

Results

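The genes described here are the 9 mouse genes that write, copy and remove DNA methylation: the methyltransferases Dnmt1, Dnmt3a and Dnmt3b, the cofactors Dnmt3l and Uhrf1, the dioxygenases Tet1, Tet2 and Tet3, and the glycosylase Tdg. They were chosen by function, with earlier results of these data known. These genes make up 9 of the 55416 Ensembl identifiers in the tables, of which 52083 carry a symbol. All 9 were found, and 8 passed the filter on low counts. The exception, Dnmt3l, was at 0 in every library. RNA was measured in small intestinal organoids, which are epithelial cultures grown in a gel, from mice aged 4 to 8 weeks. All groups, the control included, were homozygous for both transgenes, Rosa26-rtTA Tg/Tg and Col1A1-TetO-OSKM Tg/Tg. In these mice the Rosa26 locus drives a transactivator that switches on a cassette of Oct4, Sox2, Klf4 and c-Myc (OSKM) at Col1a1 when doxycycline is added. The 3 groups were untreated organoids (control), organoids under doxycycline at 0.1 µg/ml (low dose) and organoids under 0.5 µg/ml (high dose), both treated for 3 days, with 2 libraries per group. Doxycycline was given only where the factors were induced, so the drug and the factors cannot be told apart. The labels do not say whether replicates came from separate mice, so the p-values measure the spread between these libraries, which may be technical.

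In mammals most DNA methylation sits on cytosines followed by guanine (CpG). DNMT3A and DNMT3B place new methyl groups, with DNMT3L as a partner that has no catalytic activity of its own. UHRF1 recognises DNA methylated on a single strand after replication and brings DNMT1 there to copy the mark. TET proteins oxidise methylcytosine, and TDG cuts out the most oxidised forms so that base excision repair can restore plain cytosine. In the mouse intestine DNMT1 is most abundant in the dividing cells of the crypts.

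The promoters of 3 genes are shown because Tet2 rose and Dnmt3a fell by more than any other member, while Dnmt3l was not detected. Each run is the 250 bases before an annotated start, from RefSeq on GRCm38.p6, written along the gene's strand with every CpG in capitals. The windows are Tet2 at chr3:133544391-133544640 on the minus strand, the first of 3 Dnmt3a starts at chr12:3806730-3806979 on the plus strand and the first of 3 Dnmt3l starts at chr10:78042037-78042286 on the plus strand.
Tet2: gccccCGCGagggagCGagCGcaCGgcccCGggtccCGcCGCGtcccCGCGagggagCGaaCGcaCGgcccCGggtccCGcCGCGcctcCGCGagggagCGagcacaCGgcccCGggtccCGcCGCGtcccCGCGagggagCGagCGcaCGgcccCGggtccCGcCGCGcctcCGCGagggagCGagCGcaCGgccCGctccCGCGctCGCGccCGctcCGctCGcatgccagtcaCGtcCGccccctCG
Dnmt3a: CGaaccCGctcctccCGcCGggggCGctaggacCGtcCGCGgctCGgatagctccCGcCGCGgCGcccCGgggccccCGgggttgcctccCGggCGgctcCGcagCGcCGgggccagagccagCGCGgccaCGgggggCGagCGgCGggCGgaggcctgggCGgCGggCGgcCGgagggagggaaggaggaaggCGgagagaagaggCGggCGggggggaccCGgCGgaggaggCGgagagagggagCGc
Dnmt3l: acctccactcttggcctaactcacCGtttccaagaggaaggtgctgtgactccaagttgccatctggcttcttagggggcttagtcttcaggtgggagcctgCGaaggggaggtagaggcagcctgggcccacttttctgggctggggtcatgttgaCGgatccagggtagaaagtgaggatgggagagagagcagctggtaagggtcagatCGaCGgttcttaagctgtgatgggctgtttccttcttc

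The Tet2 window held 51 CpG, and 0.067% of 32851 promoter windows of this length held as many. The Dnmt3a window held 38 CpG, a number reached by 1.88% of windows. The Dnmt3l window held 5, just under the median of 6. The windows of the 2 genes that moved most, in opposite directions, were thus both dense in CpG. Density was not particular to them: the second Uhrf1 window held 30 CpG (reached by 5.94% of windows) and the third Dnmt1 window 26 (9.59%). The windows of Tet1 and Tet3 held 15 and 17. Both strands were searched for GGGCGG (GC box, bound by Sp and Klf proteins), CACCC (bound by Klf proteins), CACGTG (E-box, bound by Myc), ATGCAAA (part of the Oct4 motif) and ACAAAG (Sox core). None of these motifs lies within another. The Dnmt3a window held 5 GC boxes, starting 159, 104, 92, 85 and 42 bases before the start, and the Tet2 window held 1 at 11 bases. A GC box occurs in 32.7% of all windows. None of the other 4 motifs was in these 3 windows. The second Dnmt3a window, with 40 CpG, held 4 GC boxes. It overlaps the first Dnmt3a window, so some CpG and a GC box are counted in both. The third Dnmt3a window, with 15 CpG, held 1 GC box, 1 E-box, 1 CACCC box and 1 Sox core. The second Dnmt3l window held 2 GC boxes, 1 E-box and 3 CACCC boxes, and the third held 6 CACCC boxes. The 4 motifs occur in 52.0% (CACCC), 6.02% (E-box), 4.12% (ATGCAAA) and 16.5% (ACAAAG) of windows. These matches describe letters in the reference, and methylation and binding were not measured here. The Tet2 window also holds a stretch of 43 bases present 2 times, the copies starting at bases 62 and 146 of the window.

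Of the 8 tested members, 1 was higher, 4 were lower and 3 were not called at the high dose against control. A gene was called when its adjusted p was under 0.05 in edgeR's quasi-likelihood test over 16975 genes. By the same rule 67.5% of all tested genes were called, made up of 34.4% higher and 33.1% lower, so the share of members called was near the background. The median log2 fold change was -0.15 for the members and -0.004 for all genes. At the low dose against control the counts were again 1 higher, 4 lower and 3 not called, where 34.6% of all genes were called, 20.8% higher and 13.8% lower. Between the doses, 2 members were higher at the high than at the low dose, 1 was lower and 5 were not called, against a background of 58.9% called, 29.8% higher and 29.1% lower. The number of members lower was 2 without control replicate 1 in both comparisons with control, 2 with DESeq2 at the high dose and 2 without replicate 1 of the low dose at the low dose. The number higher between the doses was 1 without replicate 1 of the low dose or without either replicate of the high dose. The comparisons with control share the same control libraries, and both doses recur in the comparison between them.

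Tet2 was the member that rose, and it rose with each dose. Its level in TPM (transcript abundance scaled by length and to a fixed library total) was 6.37 and 7.25 in the control libraries, 10.99 and 9.66 at the low dose, and 18.25 and 21.03 at the high dose. The 3 groups did not overlap, and both libraries at the high dose lay well above all others. From the counts, Tet2 was 3.24-fold higher at the high dose than in control, a log2 fold change of 1.70 ± 0.09 (SE; edgeR adjusted p = 1.52e-07). It was 1.47-fold higher at the low dose (log2 0.55 ± 0.09, adjusted p = 0.00147) and 2.21-fold higher at the high than at the low dose (adjusted p = 3.63e-06). In the comparison of the high dose with control, 16.1% of tested genes changed at least as much in either direction.

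Tet2 is also expressed in blood cells, and the summed level of 9 immune markers was higher at each dose. That sum was 4.92 and 4.59 CPM (counts scaled to library size) in control, 7.06 and 7.38 at the low dose, and 15.6 and 14.8 at the high dose. The macrophage marker Adgre1 was at 0 in every library, and 4 of the 9 markers passed the filter. At the high dose Cd68, Cd74 and Ptprc were higher and Itgam was lower, while at the low dose Cd68 alone was called. Cd68 was 2.49 and 1.97 CPM in control, and at 13.7 and 13.2 it made up most of the sum at the high dose. Ptprc, which marks all white blood cells, reached 0.298 and 0.269 CPM. The sum of 6 endothelial markers also moved with Tet2, at 0.709 and 0.957 CPM in control, 2.43 and 2.20 at the low dose, and 4.90 and 4.47 at the high dose. Tek and Vwf, the 2 that passed the filter, were both called higher at the high dose, and Cdh5 and Cldn5 were at 0 throughout. The call of Vwf was lost with DESeq2 (adjusted p = 0.0802), without control replicate 1 (0.162) and without replicate 2 of the high dose (0.205). The part of immune or endothelial cells in the rise of Tet2 was not tested. In bulk RNA, fewer cells of a type and less RNA per cell cannot be told apart for any of these genes.

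Tet3 was not called in any of the 3 comparisons. Its TPM was 10.2 and 11.02 in control, 10.33 and 10.29 at the low dose, and 9.61 and 9.23 at the high dose. The log2 fold change at the high dose was -0.07, with a 95% interval from -0.18 to 0.04 (edgeR adjusted p = 0.201). Under upper quartile scaling, which lowers the median of all genes by 0.089, it was called lower (-0.16, adjusted p = 0.0126).

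Tet1 was near the limit of measurement. It had 67 and 69 counts in the control libraries, 64 and 61 at the low dose, and 49 and 43 at the high dose. Scaled to library size it was 1.41-fold lower at the high dose than in control, with an interval from 0.475 to 1.06 times the control level (edgeR adjusted p = 0.111), so a moderate fall and no change could not be distinguished at this depth. Its TPM does not follow its counts: TPM was 0.45 and 0.17 in the libraries at the high dose and 0.29 and 0.18 in control. The transcript length implied by counts and TPM varied 3.38-fold between libraries for Tet1, against 1.01 to 1.148-fold for the other 7 tested members. The tests of Tet1 rest on its counts, and its TPM enters below only as a small part of a sum and as a rank.

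**Figure D1:**
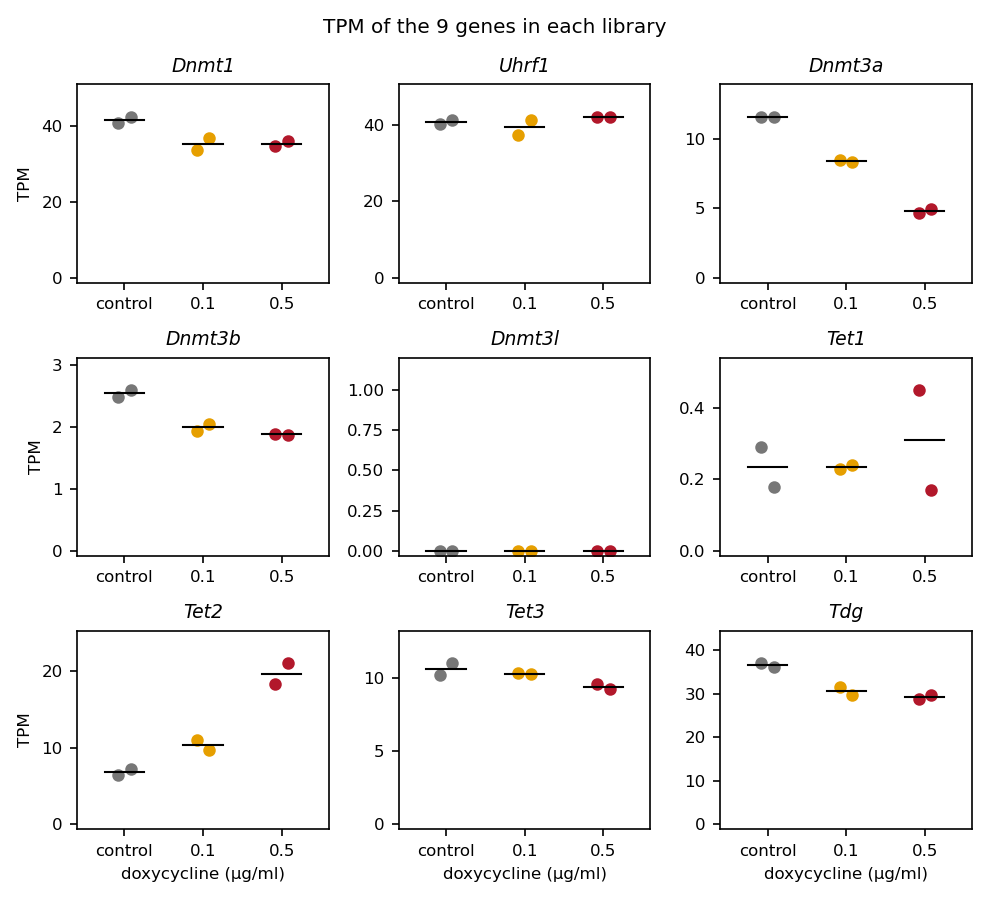
TPM (y axis, from 0) of each of the 9 genes in every library (points) by doxycycline dose (x axis, µg/ml), with the mean of each group as a line. Tet2 rises to 18.25 and 21.03 at the higher dose, Dnmt3a falls to 4.62 and 4.94, and Dnmt3l is at 0 in all 6 libraries.

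Among the de novo enzymes, Dnmt3a fell with each dose. Its TPM was 11.57 and 11.53 in control, 8.44 and 8.31 at the low dose, and 4.62 and 4.94 at the high dose. The groups were far apart relative to the spread within them. Dnmt3a was 2.36-fold lower at the high dose than in control (log2 -1.24 ± 0.05, edgeR adjusted p = 1.38e-08). It was 1.296-fold lower at the low dose (log2 -0.37 ± 0.05, adjusted p = 2.08e-04) and 1.82-fold lower at the high than at the low dose (adjusted p = 3.93e-07). A change at least as large as that at the high dose against control was seen in 22.9% of tested genes.

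Dnmt3b was the lower of the pair throughout, and it fell at both doses. Its TPM was 2.49 and 2.6 in control, 1.94 and 2.05 at the low dose, and 1.89 and 1.88 at the high dose. Both control libraries lay above all 4 treated ones. The log2 fold change was -0.34 ± 0.10 at the high dose (edgeR adjusted p = 0.0147) and -0.35 ± 0.10 at the low dose (adjusted p = 0.024). The difference between the doses was not called, at 0.01 with a 95% interval from -0.22 to 0.24. These calls are close to the threshold: at the high dose the call was lost without control replicate 1 (adjusted p = 0.0741), without replicate 2 at that dose (0.0806) and with DESeq2 (0.0529). At the low dose it was lost without control replicate 1 (0.0986), without replicate 1 of that dose (0.109), with DESeq2 (0.0501) and with limma on TPM (0.0734 and 0.0845). The antisense gene Dnmt3bos, which overlaps Dnmt3b, had 0 to 15 counts, 2.4% of the Dnmt3b counts.

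Dnmt3l had 0 counts in all 6 libraries, which allows a level of up to 0.0414 to 0.0662 CPM per library (3 counts, counting error only). Its relative Dnmt3c, a mouse gene that methylates young transposons in the male germline, was also at 0 in all 6. Among the proteins that oppose maintenance, Dppa3 (also called Stella), which keeps UHRF1 off chromatin in mouse oocytes, had 1 and 0 counts in control, 9 and 2 at the low dose, and 14 and 5 at the high dose, too few to be tested.

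**Figure D2:**
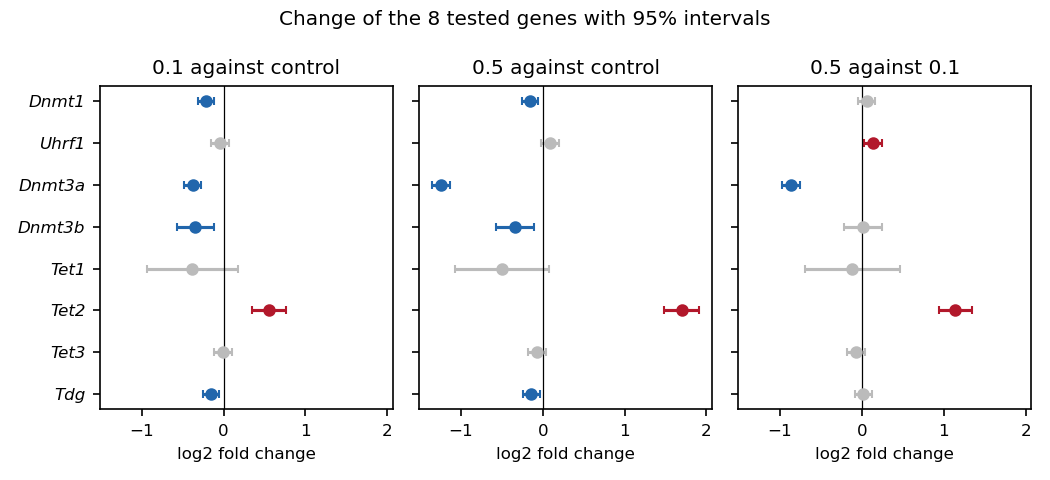
Log2 fold change (x axis) of the 8 tested genes in the 3 comparisons, with 95% intervals from the edgeR fit as bars; blue points were called lower, red higher and grey not called. The intervals of Tet2 and Dnmt3a lie on opposite sides of 0 in all 3 panels, and that of Tet1 is the widest.

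Of the maintenance pair, Dnmt1 fell slightly at both doses. Its TPM was 40.8 and 42.34 in control, 33.69 and 36.72 at the low dose, and 34.61 and 35.98 at the high dose. Both control libraries lay above the treated ones, which overlapped each other in TPM. The log2 fold change was -0.16 ± 0.05 at the high dose (edgeR adjusted p = 0.0111) and -0.22 ± 0.05 at the low dose (adjusted p = 0.00479). At the high dose 80.1% of tested genes changed as much or more. The doses differed by 0.06, with an interval from -0.04 to 0.16.

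Uhrf1 was not called against control at either dose. Its TPM was 40.27 and 41.26 in control, 37.39 and 41.39 at the low dose, and 42.01 and 42.2 at the high dose. Against control the log2 fold change was 0.09 at the high dose, with a 95% interval from -0.02 to 0.20 (edgeR adjusted p = 0.124), and -0.05 at the low dose, with an interval from -0.16 to 0.06 (adjusted p = 0.486). It was called higher at the high than at the low dose, by 0.14 ± 0.05 (adjusted p = 0.0324). That call was lost without replicate 1 at the low dose (0.186), without replicate 1 or 2 at the high dose (0.126 and 0.125), under upper quartile scaling (0.136), with limma on TPM (0.215 and 0.214) and with the replicate number as a block (0.0507).

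Dnmt1 and Uhrf1 are made mainly in dividing cells, so the proliferation lists are given beside them. The summed level of 28 S-phase genes was 1963 and 1889 CPM in control, 1777 and 1897 at the low dose, and 1778 and 1784 at the high dose. The sum of 12 mitosis genes was 1887 and 1956 CPM in control, 1801 and 1865 at the low dose, and 1592 and 1582 at the high dose. At the high dose, 12 S-phase genes were lower, 5 were higher and 11 were not called, beside 33.1% of all genes lower and 34.4% higher. The share of the S-phase list called, 60.7%, was thus near the background of 67.5%. The number lower was 7 with DESeq2 and 7 without control replicate 1. The number higher was 2 with limma on TPM and 3 without replicate 2 at that dose. Of the mitosis genes, 8 were lower and 1 was higher, and none was higher without control replicate 1 or without either replicate of the high dose. The part of proliferation in the fall of Dnmt1 was not tested.

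Tdg, which completes the oxidative route, fell slightly at both doses. Its TPM was 37.08 and 36.21 in control, 31.68 and 29.72 at the low dose, and 28.77 and 29.83 at the high dose. All treated libraries were below both controls. From the counts, the log2 fold change was -0.14 ± 0.05 at the high dose (edgeR adjusted p = 0.0226) and -0.15 ± 0.05 at the low dose (adjusted p = 0.0268). The fall was larger with limma on log2(TPM + 1), at -0.31 and -0.25 in the same order (adjusted p = 0.00226 and 0.0183). The call at the high dose was lost without control replicate 1 (0.121), without replicate 1 of that dose (0.0860) and with DESeq2 (0.0902). The call at the low dose was lost without control replicate 1 (0.0999) and without either replicate at that dose (0.0774 and 0.0767). Reads of Tdg can be shared with the near-identical copy Tdg-ps, which had 230 to 409 counts. The 2 genes together gave 66.3 and 63.7 CPM in control, 58.4 and 58.0 at the low dose, and 57.5 and 59.8 at the high dose, again with all treated libraries below the controls.

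The makeup of the Tet and de novo families shifted with dose. Tet2 supplied 37.8 and 39.3% of the summed TPM of the 3 Tet genes in control, 51.0 and 47.9% at the low dose, and 64.5 and 69.1% at the high dose. Tet3 was the main Tet transcript in control, at 60.1% ± 0.544 (SD, n = 2), and held 32.1% ± 2.56 (SD, n = 2) at the high dose. The groups did not overlap in either share, and Tet1 made up 0.559 to 1.72% of the sum. The Tet sum was 17.7 ± 1.12 TPM in control, 20.9 ± 0.962 at the low dose and 29.4 ± 1.5 at the high dose (SD, n = 2 each). The sum of Dnmt3a and Dnmt3b was 14.1 ± 0.0495, 10.4 ± 0.0141 and 6.67 ± 0.219 TPM in the same order. The share of Dnmt3a in that sum was 81.9% ± 0.488 in control, 80.8% ± 0.776 at the low dose and 71.7% ± 1.04 at the high dose. The ratio of Tet2 to Dnmt3a TPM was 0.590 ± 0.0553 in control, 1.23 ± 0.0988 at the low dose and 4.10 ± 0.217 at the high dose. With 2 libraries a group, an exact permutation test of such a single value could not give a p below 0.333, so the ratios stand as a description.

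**Figure D3:**
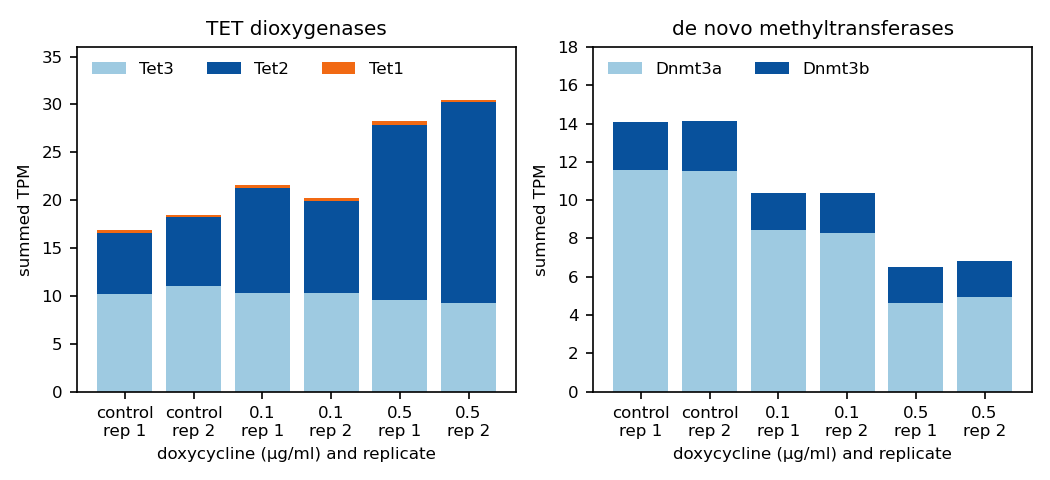
Summed TPM (y axis, from 0) of the 3 Tet genes (left) and of Dnmt3a and Dnmt3b (right) in each library, stacked by gene, by dose (µg/ml) and replicate. Tet2 makes up 64.5 and 69.1% of the Tet sum in the libraries at the high dose, and the de novo sum falls from 14.1 to 6.67 TPM.

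In order of TPM, Dnmt1, Uhrf1 and Tdg led in control, and the ranges of Dnmt1 and Uhrf1 overlapped. Dnmt3a, Tet3, Tet2 and Dnmt3b followed without overlap, and Tet1 was last of the detected genes. At the high dose the order was Uhrf1, Dnmt1, Tdg, Tet2, Tet3, Dnmt3a, Dnmt3b and Tet1, with no overlap between neighbours, although the TPM of Tet1 is unreliable. Tet2 and Dnmt3a had thus exchanged places around Tet3. The ratio of Uhrf1 to Dnmt1 TPM was 0.981 ± 0.00885 in control, 1.12 ± 0.0123 at the low dose and 1.19 ± 0.0290 at the high dose (SD, n = 2 each).

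Partners of maintenance methylation moved in both directions at the high dose. Of 20 tested genes of 22 listed, 11 were higher, 7 were lower and 2 were not called, with a median log2 fold change of 0.18. For comparison, here and for the lists that follow, the share of all tested genes called was 34.4% on the higher side and 33.1% on the lower side, with a median of -0.004. Zfp57, which guards methylation at imprinted regions, was 1.44 and 1.60 CPM in control, 5.39 and 4.04 at the low dose, and 31.2 and 35.0 at the high dose. It was 21.8-fold higher at the high dose than in control (edgeR adjusted p = 4.5e-09). Kdm1b, a histone demethylase needed for maternal imprints in mouse oocytes, rose 2.41-fold (adjusted p = 1.02e-08). On the lower side were Cdca7 and Hells, which form a nucleosome remodeller that helps DNMT1, and the UHRF1 relative Uhrf2. Cdca7 was 76.9 and 71.1 CPM in control, 50.3 and 56.2 at the low dose, and 37.5 and 35.7 at the high dose, a 2.02-fold fall at the higher dose (adjusted p = 4.9e-07). Hells fell 1.36-fold and Uhrf2 1.35-fold (adjusted p = 4.69e-05 and 4.22e-05). Also among the 11 higher were Usp7 (1.60-fold, adjusted p = 5.77e-07), Hdac1 (1.46-fold, 1.53e-06), Lig1 (1.33-fold, 1.59e-04) and Pcna (1.13-fold, 0.00532). Hells, Uhrf2, Usp7, Hdac1, Lig1 and Pcna were named after their values were seen.

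Of 18 tested TET partners and cofactor genes of 20 listed, 5 were higher, 6 were lower and 7 were not called at the high dose, with a median of -0.10. The 5 were Tfcp2l1, Slc23a2, Ogt, Idh3a and Sinhcaf. Tfcp2l1, a pluripotency factor, was 12.2 and 12.6 CPM in control, 54.1 and 54.0 at the low dose, and 94.1 and 87.1 at the high dose, a 7.30-fold rise (edgeR adjusted p = 1.56e-10). Slc23a2, which imports vitamin C, the reducing cofactor of TET enzymes, rose 1.90-fold (adjusted p = 7.74e-07). Cxxc5, whose protein binds unmethylated CpG and is known to lower TET2 protein in mouse cells, fell from 3.44 and 3.39 CPM in control to 0.710 and 0.633 at the high dose (adjusted p = 6.07e-06). The rest of the 6 lower genes were Idh1, Idh3g, Sdha, Fh1 and Cxxc1, which fell 1.136 to 1.269-fold and were named after their values were seen. The rises of Ogt, Idh3a and Sinhcaf were 1.11 to 1.17-fold. The call of Idh3a was lost in 5 of 15 alternatives and that of Sinhcaf in 6 of 15. The call of Ogt was lost in 10 of 15 alternatives, among them DESeq2 (adjusted p = 0.121), the 2 groups fitted alone (0.0531) and the omission of control replicate 1 (0.328) or of any treated library (0.0526 to 0.196). The count of 5 was 2 under upper quartile scaling, with limma on TPM and without replicate 1 at the high dose, and 3 without control replicate 2 or without replicate 2 at the high dose.

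Readers of methylated DNA, with the subunits of the NuRD repressor complex, were called mainly in 1 direction. Of 17 genes, 10 were lower, 1 was higher and 6 were not called at the high dose, with a median of -0.21. The gene called higher was Gatad2a, a NuRD subunit (log2 0.40 ± 0.05). Zbtb38, a zinc-finger protein that binds methylated CpG, was 53.0 and 55.3 CPM in control, 33.6 and 35.6 at the low dose, and 20.2 and 21.9 at the high dose. It was 2.57-fold lower at the higher dose (edgeR adjusted p = 2.61e-08). Rbbp7, a histone-binding NuRD subunit, fell 1.65-fold and Mbd6 fell 1.51-fold. At the low dose, 6 genes of this list were lower and none of the 17 was higher, where 13.8% of all genes were lower and 20.8% higher. The number lower was 10 under upper quartile scaling.

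Repair genes that act after TET and TDG divided evenly at the high dose, with 9 of 24 tested higher, 9 lower and 6 not called, and a median of 0.02. The number lower was 5 with DESeq2. Apobec1, a cytidine deaminase that edits apolipoprotein mRNA in the mouse intestine, was 2.64-fold higher, and Hmces, a sensor of abasic sites, was 2.57-fold higher (edgeR adjusted p = 4.47e-08 and 7.73e-08). Parp1, which detects DNA breaks, was 141 and 145 CPM in control and 142 and 148 at the low dose, and 225 and 224 at the high dose. It was 1.57-fold higher than control at the high dose (adjusted p = 4.93e-07) and was not called at the low dose (0.714).

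Genes of the methyl donor cycle, which makes S-adenosylmethionine, also moved both ways: 7 of 21 tested were higher, 9 were lower and 5 were not called at the high dose, with a median of -0.12. Mtr, the methionine synthase, was 18.01 and 17.33 CPM in control, 27.8 and 24.6 at the low dose, and 97.0 and 112.9 at the high dose, a 5.94-fold rise (edgeR adjusted p = 4.22e-09). Ahcy, which clears the inhibitory product of methyl transfer, fell from 481 and 476 CPM in control to 297 and 285 at the high dose (adjusted p = 1.41e-07). Shmt1, which feeds one-carbon units into the cycle, fell 1.85-fold (adjusted p = 1.8e-07).

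**Figure D4:**
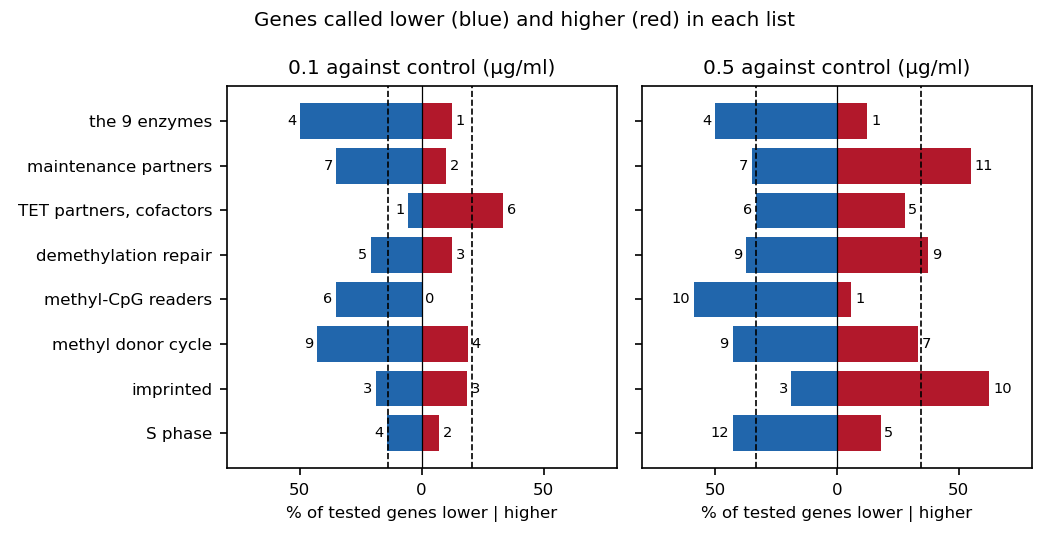
Share of the tested genes of each list called lower (blue, left) or higher (red, right) against control at the low and high doses (x axis, percent), with the number of genes beside each bar and the share among all tested genes as dashed lines. The list of methyl-CpG readers includes NuRD subunits. At the high dose 10 of its 17 genes are lower, and 10 of 16 imprinted genes are higher.

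Genes whose expression depends on DNA methylation gave a mixed picture, and no methylation was measured. Of 22 imprinted genes 16 were tested, and 10 were higher, 3 were lower and 3 were not called at the high dose, with a median of 0.70. The 6 untested genes did not pass the filter, which a gene low in control passes only if a treated group expresses it. Igf2, a fetal growth factor, was 0.932 and 1.18 CPM in control, 2.73 and 2.26 at the low dose, and 28.7 and 31.8 at the high dose (edgeR adjusted p = 1.51e-09). Grb10, which restrains insulin signalling, was 6.31-fold higher, and Snrpn, a splicing protein, was 2.69-fold higher. The 3 lower genes were Plagl1, Kcnq1ot1 and Igf2r. The call for Igf2r was lost without control replicate 1 (adjusted p = 0.0579) and without replicate 2 at the high dose (0.0588). Of 24 germline genes known to be silenced by promoter methylation in somatic cells, 19 did not pass the filter. Among the 5 tested, Piwil2 and Tdrd1 of the piRNA pathway were higher and Tdrkh of the same pathway was lower; the number lower was 2 without control replicate 2. Piwil2 was 1.38 and 1.48 CPM in control, 1.92 and 1.90 at the low dose, and 21.5 and 25.2 at the high dose (adjusted p = 2.69e-09).

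Over the 6 libraries, the genes whose log2 CPM ran most like Tet2 were Sugp1 and Mindy1 (Pearson r = 0.9992 and 0.9991), and those most like Dnmt3a were Tinag and Jaml (0.9998 and 0.9997). Such values are common here, since the points share 3 dose groups: 1891 of 10070 genes had r above 0.95 with Tet2 and 1873 with Dnmt3a. For Dnmt1 the closest was Tpr (0.9945), for Dnmt3b Cttnbp2 (0.9897), for Uhrf1 Hnrnpc (0.9909), for Tet1 Mpp7 (0.9908), for Tet3 Zfp729b (0.9809) and for Tdg Cpsf1 (0.9916).

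The tested genes held 45270485 to 72520742 counts in a library. The induced factors followed the labels: Pou5f1, which encodes Oct4, was 0.243 and 0.140 CPM in control, 136 and 141 at the low dose, and 486 and 512 at the high dose, and all 4 factors were higher at each dose. All 11 intestinal epithelial markers passed the filter. Their sum was 6960 and 6867 CPM in control, 8248 and 8037 at the low dose, and 9728 and 9773 at the high dose. The markers moved both ways: at the high dose 6 were higher and 5 lower, beside 34.4% of all tested genes higher and 33.1% lower. The sum of 9 fibroblast markers was 4.01 to 7.50 CPM. Of the 4 tested, Col1a1 and Dcn were higher and Vim and Pdgfrb were lower at the high dose. The factor cassette sits at Col1a1, and its part in the Col1a1 counts was not tested.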

How the data were processed

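RNA from 6 organoid libraries in 3 groups was read as 100 bp pairs after poly-A selection and a strand-specific kit, per the labels' protocols. Tools named in the submitters' processing notes are STAR 2.7.3a, RSEM 1.3.3, Trim Galore and FastQC; of the builds GRCm39 and mm10, both are listed, with no role. RSEM's expected counts, estimates that need not be whole, and TPM values, which have 1 fixed total per library and so carry no depth, were deposited by the authors. Reads that fit near-identical genes are divided by RSEM, and whether counting used strand was not stated.

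Identifiers were paired with symbols from GENCODE M21 (94.0% matched; the others held 0.180 to 0.260% of counts). Counts were rounded, filtered by edgeR's filterByExpr and scaled by TMM (factors 0.964 to 1.04). A quasi-likelihood model (edgeR 4.0.16, R 4.3.3) with a mean per group was fitted to all 6 libraries, leaving 3 residual degrees of freedom. The model shares the spread across genes, so the tests and intervals used 9.33 degrees of freedom. Tests were two-sided, with Benjamini-Hochberg adjustment over all 16975 tested genes at 0.05. Intervals are 95%. Their SE is the absolute log2 fold change over the square root of the test's F statistic. The alternatives were DESeq2 1.42.0, RLE and upper quartile scaling, no filter, only the groups compared, limma 3.58.1 on log2(TPM + 1) or log2(TPM + 0.1) for genes of at least 1 TPM in 2 libraries, the replicate block and leaving out each library.

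The members and lists were chosen with earlier results of these data known. All members and factors are named, and from each list the 3 genes with the smallest adjusted p at 0.5 µg/ml among those called, any group of 5 or fewer counted, and the genes most like a member by Pearson r among those of at least 5 CPM. Not every gene so chosen is printed, and some further genes were named after their values were seen. No set test was run, and no list has a p-value of its own.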

Additional observations from a re-analysis of the deposited data

How the results depend on the processing

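The calls of Dnmt1, Dnmt3a and Tet2 against control were kept in all 15 alternatives run, with log2 fold changes at 0.5 µg/ml of 1.40 to 1.77 for Tet2, -1.33 to -1.12 for Dnmt3a and -0.25 to -0.14 for Dnmt1 (highest adjusted p 5.02e-05, 1.88e-05 and 0.0415). The members lower at 0.5 µg/ml numbered 2 with DESeq2 and 2 to 4 when a library was left out, and those lower at 0.1 µg/ml 2 to 4 when a library was left out. The members higher at 0.5 than at 0.1 µg/ml numbered 1 under upper quartile scaling, with limma on TPM + 1 or + 0.1, and with the replicate block, and 1 to 2 when a library was left out. Over all genes, limma on TPM + 1 or + 0.1 gave 3816 and 3806 higher at 0.5 µg/ml, 1945 and 2024 higher and 1560 and 1484 lower at 0.1 µg/ml, and 3146 and 3115 higher between doses, with fewer genes tested; leaving out 1 library gave 2352 to 2963 higher and 1448 to 2291 lower at 0.1 µg/ml, the lowest both without replicate 1 at that dose. Uncalled changes turned direction between the doses for Dnmt3b (-0.0389 with upper quartile, -0.0537 and -0.0773 with limma, -0.0445 to 0.0650 when a library was left out), for Tdg (-0.0343, -0.0647, -0.0666 and, by library, -0.0089 to 0.0363) and for Tet1 (-0.3513 to 0.1276 by library), and for Tet3 at 0.1 µg/ml (-0.0512 to 0.0001 by library); the cause was not tested. Deviations of same-numbered libraries correlated at -0.11 between control and 0.1 µg/ml, 0.114 between control and 0.5 µg/ml and -0.0167 between the doses. The labels do not say whether replicate numbers pair the libraries, and correlations this weak cannot settle it. With the replicate block, the high dose had 5707 genes higher and 5455 lower than control, and of the members' calls only that of Uhrf1 between the doses was lost. With the numbers crossed at 0.1 µg/ml, an alternative chosen after seeing the data, the low dose had 3726 genes higher and 2559 lower. The counts of the lists, run under the same alternatives after seeing the data, moved by over 1.5 times in 21 of 270 cases at 0.5 µg/ml and 53 of 270 at 0.1 µg/ml. Depth limited Tet1, and 2 libraries a group leave 3 residual degrees of freedom, which sharing the spread across genes raised to 9.33 in the tests.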
